A study of Ailuropoda melanoleuca with 25 samples.

Results

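A set of 40 giant panda gene models, of 22924 in all, was well expressed in primary fibroblasts and low in every later stage of reprogramming that was used to choose it. Members had a group mean of at least 10 CPM (estimated counts scaled to a common library total) in both fibroblast groups, LB PF and XR PF. Their mean was at most 20% of the lower of both fibroblast means in each of 5 later groups, which were stage I day 8 (D8), stage I day 24 (D24), stage II D8, LB GPiPSCs and XR GPiPSCs. Of all models, 8260 reached 10 CPM in both fibroblast groups, and these served as the background for levels. The lower fibroblast mean of each model is called its fibroblast level below. The members were chosen by the CPM values of those 7 groups, so these are given as a description and were not tested. The values of the 5 other groups took no part in the choice.

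Reprogramming turns a differentiated cell into a pluripotent one by forced expression of a few transcription factors. In mouse and human fibroblasts the shut-down of the fibroblast programme, with its matrix, cytoskeletal and mesenchymal regulator genes, is known as one of the first transcriptional events and precedes the full pluripotency network. Signalling through the transforming growth factor beta (TGF-beta) receptor supports the mesenchymal state, and compounds that block it are widely used in reprogramming media. The deposited identifiers carry no gene names and the RefSeq gene table at hand holds 0 of them, so the members are named by model identifier, no role can be given to any of them, and the fibroblast label could not be checked against marker genes.

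Messenger RNA of the giant panda (Ailuropoda melanoleuca) was sequenced in 25 libraries from a study that made induced pluripotent stem cells (GPiPSCs) from primary fibroblasts (PF) with episomal vectors, which do not integrate into the genome. The 12 groups, from their titles, were A83-01 D16 (day 16 with A83-01, an inhibitor of the TGF-beta type I receptor), control D16 (day 16, no agent named), BACL-CHIR99021 (BACL with CHIR99021, an inhibitor of the kinase GSK3 that activates Wnt signalling), BACL LB GPiPSCs, BACL control (no agent named), XR GPiPSCs, LB GPiPSCs, stage II D8, stage I D24, stage I D8, XR PF and LB PF. LB GPiPSCs had 3 libraries and every other group 2. The meaning of LB, XR and BACL is left unexplained in the labels, which mark neither the stage and D16 libraries nor BACL control and BACL-CHIR99021 as LB or XR, and which list primary fibroblasts as the source of every sample. No age, sex or strain of the animals and no clone number is used here, and whether replicates were separate cultures, or the D16 cells part of the stage I time course, is not stated. P-values therefore measure the spread between libraries, which may be technical. In these bulk samples fewer cells of a type and less RNA per cell cannot be told apart.

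Total estimated counts ran from 8627983 to 14890260 per library, and 3 counts, taken as the floor of detection, were worth 0.202 to 0.348 CPM. Floors cover counting error only. TMM factors, which correct for differences in RNA composition, ran from 0.622 in stage I D8 replicate 1 to 1.33 in LB GPiPSCs replicate 1. All 40 members were among the 17225 models with enough counts to be tested.

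In the fibroblasts the members had a median of 68.1 CPM in LB PF and 56.8 CPM in XR PF. They took 1.64% and 1.93% of all counts in the LB PF libraries and 1.89% and 0.635% in the XR PF libraries. The share was far smaller at each later stage in the rule, with 0.116% and 0.187% at stage I D8, 0.0723% and 0.250% at stage I D24 and 0.0472% and 0.0362% at stage II D8. The LB and XR GPiPSC libraries had 0.0135% to 0.0207%. The D16 libraries, outside the rule, stood between, with 0.434% and 0.313% in A83-01 D16 and 0.466% and 0.50% in control D16.

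Expressed against the fibroblast level, the members had a median of 9.12% at stage I D8 (range 1.84% to 19.55%), 11.8% at stage I D24 (2.41% to 19.9%) and 1.96% at stage II D8 (0.295% to 5.94%). The medians were 2.04% in LB GPiPSCs (0% to 15.85%) and 3.10% in XR GPiPSCs (0% to 18.7%). All 40 members were thus low at stage I D8, but none was at 0 counts. At or under the floor of 3 counts were 1 member in stage I D8 replicate 1 and 3 members in stage I D24 replicate 1. No member was at or under 1% of its fibroblast level there or at stage I D24, while 10 members were in stage II D8 and 12 in each GPiPSC group. At or under 5% lay 8 members at stage I D8, 4 at stage I D24, 37 at stage II D8 and 27 in each GPiPSC group. No member had 0 counts in any stage I library, against 3 members in stage II D8 replicate 2 and between 2 and 6 members in each GPiPSC library.

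**Figure D1:**
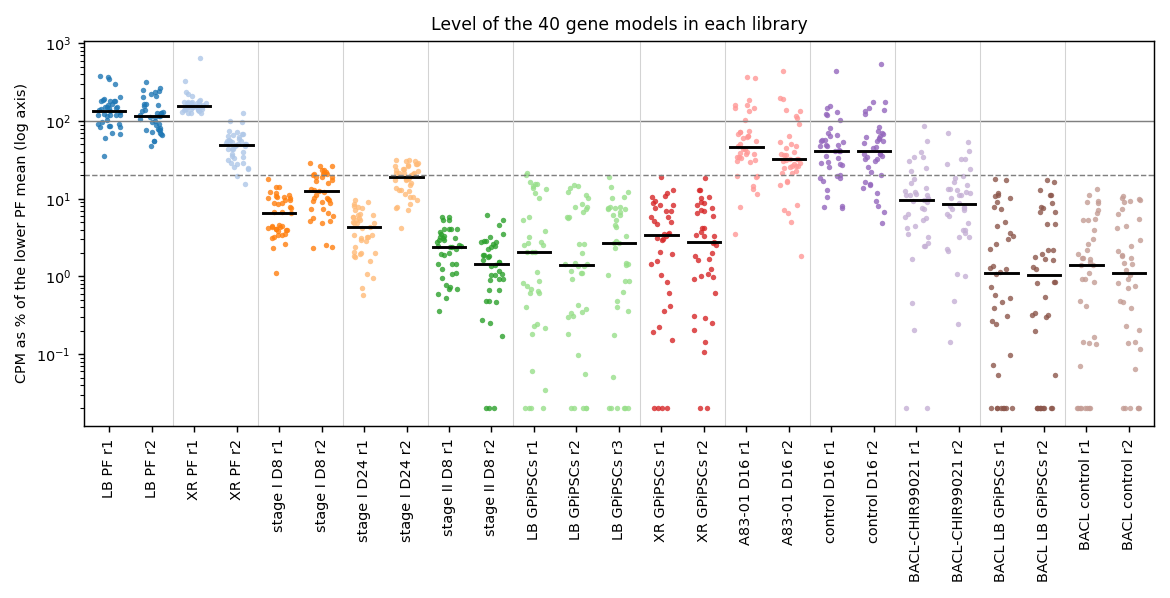
Level of each of the 40 members in each of the 25 libraries, as a percentage of the fibroblast level on a log axis, with points for models, black bars for medians, a dashed line at 20%, a solid line at 100% and values at or near 0 drawn on the lowest row of points. The medians are 6.65% and 12.5% in the stage I D8 libraries, 4.28% and 19.3% at stage I D24 and 2.42% and 1.47% at stage II D8, while in A83-01 D16 they are 46.0% and 32.1% and in control D16 41.7% and 41.1%.

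Most members were lower again at stage II D8. The stage II D8 mean was the lowest of the 5 later groups for 20 members, LB GPiPSCs for 18 and XR GPiPSCs for 2. Stage I D8 was the highest for 18 and stage I D24 for 19. Both stage II D8 libraries lay below both stage I D24 libraries for 31 of the 40 members, with a median ratio of 0.166, or 0.224 with TMM scaling. The same was true of 33.6% of the background models, whose median ratio was 0.815. Stage I D24 and stage I D8 were not clearly ordered. The mean was higher at D24 for 22 members, with a median ratio of 1.20 that became 0.827 with TMM scaling, so the direction depends on the scaling. The libraries of both days were apart for 8 members, 3 higher and 5 lower at D24, against 38.4% and 17.6% of the background models.

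Stage II D8 and the established lines were not ordered either. The median ratio of LB GPiPSCs to stage II D8 was 1.09, or 0.587 with TMM scaling, and that of XR GPiPSCs to stage II D8 was 1.6, or 0.934 with TMM scaling. In the fibroblasts the LB PF mean was above the XR PF mean for 30 members, with a median ratio of 1.18 that was 1.02 with TMM scaling. The LB PF libraries were both above the XR PF libraries for 7 members and below for 0, against 25% and 13.6% of the background models.

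At the edge of the rule, the members just inside had 19.9% of the fibroblast level at stage I D24 and 19.55% at stage I D8, and the nearest models outside had 20.08% at stage I D24 and 20.34% at stage I D8. The member with the lowest fibroblast level had 12.55 CPM, and the nearest model that met the rest of the rule had 9.94 CPM.

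The 2 members with the highest fibroblast level set the scale of the group. Model evm.model.HIC_ASM_15.1231 has a coding length of 17742 bases and carried more counts than all other members together in several libraries. It had 8516 and 13730 CPM in LB PF and 7910 and 3564 CPM in XR PF, then 804 and 1183 CPM at stage I D8, 549 and 1735 CPM at stage I D24 and 337 and 267 CPM at stage II D8. In LB GPiPSCs it had 1.98, 10.5 and 20.4 CPM and in XR GPiPSCs 60.3 and 53.4 CPM. No later library of these groups reached the lowest fibroblast library. Its D16 levels were 2220 and 1530 CPM in A83-01 D16 and 2404 and 2545 CPM in control D16, above both stage I D8 libraries in every case but below every fibroblast library. Model evm.model.HIC_ASM_11.499 had 3200 and 1254 CPM in LB PF and 2329 and 776 CPM in XR PF, then 121 and 195 CPM at stage I D8, 31.4 and 121 CPM at stage I D24 and 57.8 and 42.8 CPM at stage II D8. It was at 3.36 to 6.70 CPM in all 5 GPiPSC libraries. Unlike the first, it also stayed low at day 16, at 2.70% of the fibroblast level in A83-01 D16 and 8.01% in control D16.

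**Figure D2:**
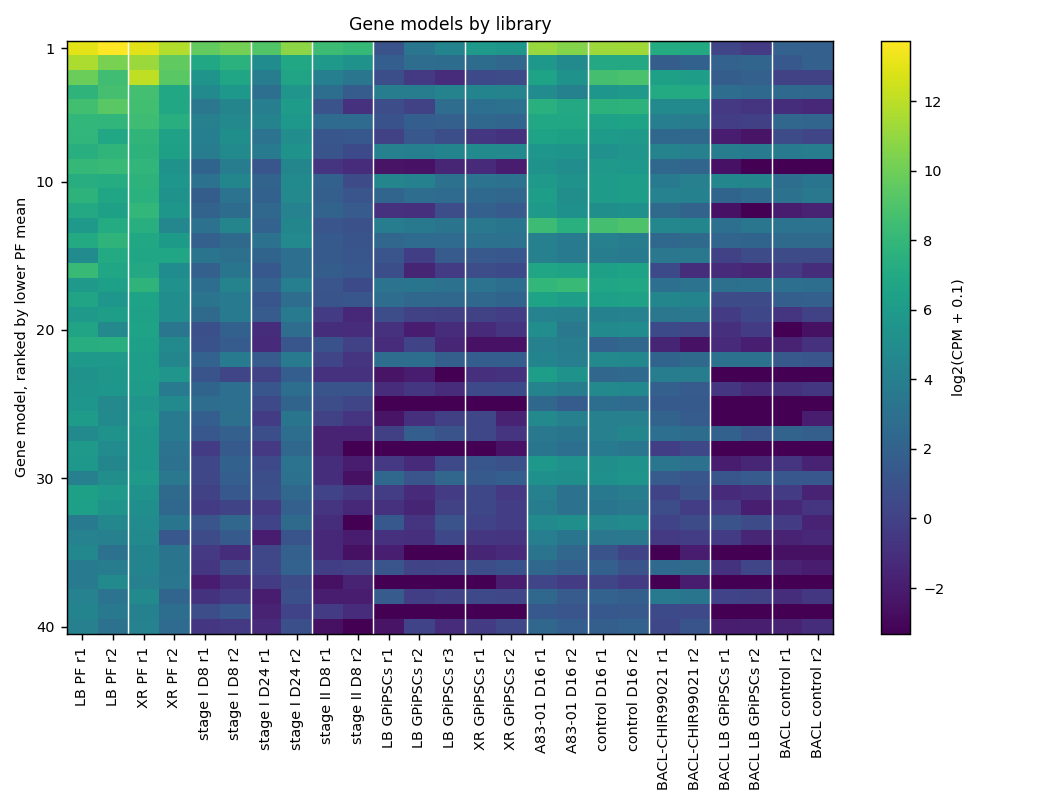
Level of the 40 members (rows, ranked by fibroblast level) in all 25 libraries (columns, by group), with colour for log2(CPM + 0.1). The fibroblast columns are the brightest, the stage II D8, GPiPSC and BACL LB GPiPSC columns are dark, and row 1, evm.model.HIC_ASM_15.1231, runs between 1735 and 267 CPM across the stage columns.

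Replicates differed, and they did so together across the members. XR PF replicate 2 was below replicate 1 for 39 of the 40 members, by a median of 3.37-fold, while 54.0% of the background models were lower in it. Stage I D24 replicate 2 was above replicate 1 for all 40 members, by a median of 4.20-fold, against 70.6% of the background models. At stage I D8 replicate 2 was higher for 37 members (1.94-fold, 62.9% of the background models), at stage II D8 it was lower for 35 (1.57-fold, 67.0%), and in A83-01 D16 it was lower for 38 (1.39-fold, 62.4%). The other groups were closer, with median differences of 1.09-fold or less. As the rule takes means, only 29 members were at or under 20% in every stage I D8 library and 20 in every stage I D24 library, against 40 at stage II D8, 38 in LB GPiPSCs and 40 in XR GPiPSCs.

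These library differences set which models are members. Without XR PF replicate 1 the same rule gave 5 members, without XR PF replicate 2 it gave 82, and without stage I D24 replicate 1 it gave 20. With TPM in place of CPM it gave 60 models, 32 of them shared with the 40, and with TMM scaling it gave 50, with 31 shared. On the TMM scale 31 of the 40 were at or under 20% at stage I D8, and all 40 were in the 4 other later groups.

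A measure of library make-up moved with the members in these pairs. The mean coding length of a library, weighted by counts, was 2461 bases in XR PF replicate 1 and 2018 bases in replicate 2, 1854 and 1930 bases at stage I D8, 1505 and 1868 bases at stage I D24, 1702 and 1685 bases at stage II D8, and 2029 and 1809 bases in A83-01 D16. In each of these 5 pairs the library with the larger value also had the higher members. In XR GPiPSCs, BACL-CHIR99021 and BACL control, whose replicates were closer, the library with the larger value had the lower median, such as 0.549 CPM at 1795 bases and 0.618 CPM at 1779 bases in BACL control. Counted member by member, that library was instead more often the higher one. It was higher for 26 members and lower for 12 in XR GPiPSCs, 23 and 17 in BACL-CHIR99021, and 20 and 14 in BACL control. The members were longer than the background, with a median coding length of 1654 bases against 1389 bases. The measure is taken over all models, the members included, so it is partly made of the members' own counts. The part of this measure in the members' levels was not tested.

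**Figure D3:**
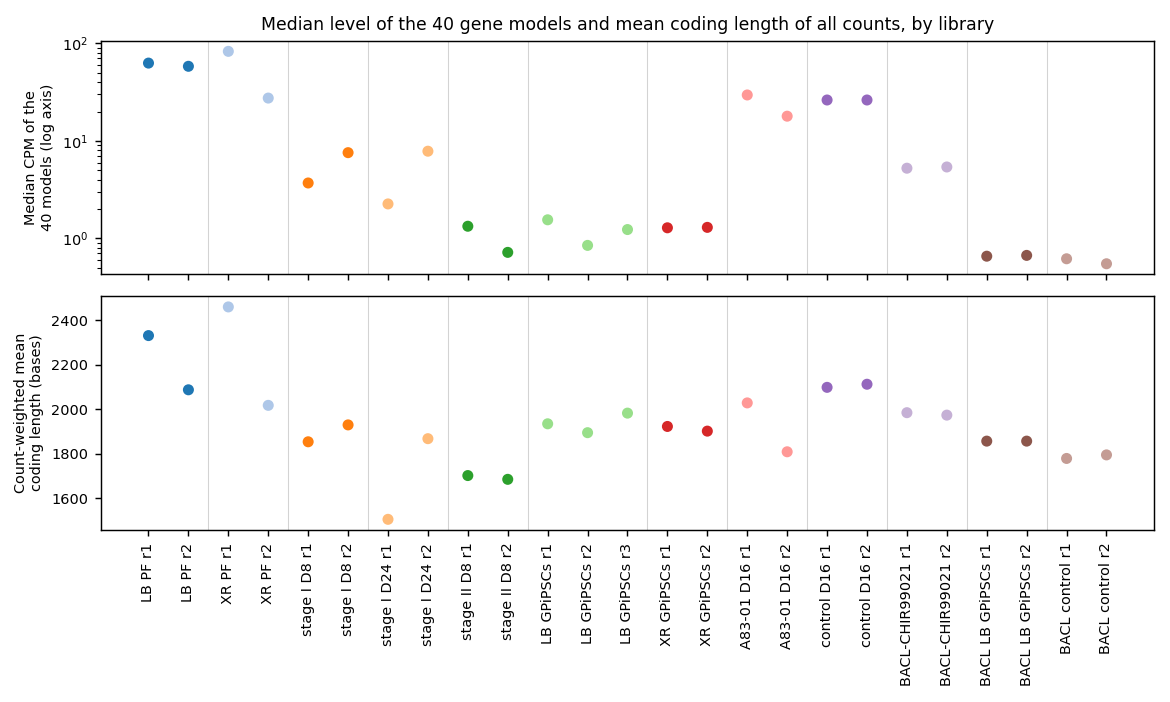
Median CPM of the 40 members (upper panel, log axis) and count-weighted mean coding length in bases (lower panel) in each of the 25 libraries, with 1 point a library and colours for groups. Within XR PF, stage I D8, stage I D24, stage II D8 and A83-01 D16 the library with the greater mean length has the higher median, as in XR PF with 82.8 CPM at 2461 bases and 27.5 CPM at 2018 bases.

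Most members were above 20% of the fibroblast level in the D16 libraries, which the rule did not use. In A83-01 D16 the median was 40.3% of the fibroblast level (range 2.70% to 408%), and in control D16 it was 41.4% (6.36% to 491%). The background models had higher medians, 123% in A83-01 D16 and 108% in control D16. Of the 40 members, 8 were at or under 20% in A83-01 D16 and 9 in control D16, against 0.993% and 1.07% of the background models. The fibroblast level and low values in other groups chose the members, so part of this excess is built in and it is no independent test. Without XR PF replicate 1 in the fibroblast level, the counts were 5 and 6. In A83-01 D16, 24 members lay between 20% and 100% and 8 members were at or above the fibroblast level. In control D16, 24 lay between and 7 were at or above it. By comparison 69.7% of the background models were at or above it in A83-01 D16 and 57.4% in control D16. Across both groups, 7 members were at or above the fibroblast level in both and 5 were at or under 20% in both. As it is not stated whether the D16 cells belong to the stage I time course, these values do not describe stage I D8. At stage I D8 itself the members were low but none was absent, as given above, so the set is called by its rule here.

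Both control D16 libraries lay above both stage I D8 libraries for 37 of 40 members, with a median ratio of means of 4.94, or 3.64 with TMM scaling. Of the background models 57.1% did so, with a median ratio of 1.27. Both lay above both stage I D24 libraries for 35 members, with a median ratio of 3.83, against 39.1% and a median ratio of 1.04 for the background. The low stage I values chose the members, so these ratios are no independent test. The count-weighted mean coding length was 2099 and 2113 bases in control D16, above all 4 stage I libraries, and its part in the difference was not tested. Both A83-01 D16 libraries lay above both stage I D8 libraries for 35 members and below for 2, with a median ratio of 5.20 (background 59.5% above, 24.9% below, median ratio 1.43). The low stage I D8 values chose the members here too. In A83-01 D16 the mean coding length was 2029 and 1809 bases, the second below both stage I D8 libraries. Its part in this difference was not tested either.

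Another group of 674 models met the rule in both GPiPSC groups but not in every stage group. These had a median of 83.6% of their fibroblast level at stage I D8, 57.5% at stage I D24 and 19.5% at stage II D8, which the choice itself sets apart from the members. At D16, which played no part in either choice, they had a median of 82.8% in A83-01 D16 and 102% in control D16, and 7.72% and 4.90% of them were at or under 20%.

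The 2 members that were highest at D16 against their fibroblast level were evm.model.HIC_ASM_17.671 and evm.model.HIC_ASM_1.457. Model evm.model.HIC_ASM_17.671 had 339 and 184 CPM in A83-01 D16 and 421 and 508 CPM in control D16, against 57.6 and 148 CPM in LB PF and 165 and 23.8 CPM in XR PF. Every D16 library was above every fibroblast library, although at stage I D8 the model was at 8.41 and 21.9 CPM, at stage I D24 at 3.99 and 22.4 CPM and at stage II D8 at 2.15 and 1.80 CPM. The control D16 mean was 491% of the fibroblast level. Model evm.model.HIC_ASM_1.457 had 252 and 303 CPM in A83-01 D16 and 107 and 119 CPM in control D16, against 56.8 and 79.0 CPM in LB PF and 223 and 40.03 CPM in XR PF. Its A83-01 D16 libraries were above every fibroblast library, and its control D16 libraries were above all fibroblast libraries but XR PF replicate 1.

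The comparison of A83-01 D16 with control D16 asks what the TGF-beta receptor inhibitor did at day 16, and the rule used neither group. Few members differed. In edgeR's quasi-likelihood test with Benjamini-Hochberg adjustment over all 17225 models, 1 member was higher and 2 were lower in A83-01 D16. Over all models tested 4.19% were higher and 2.04% lower, beside 2.5% and 5.0% of the members. Of the 674 models that met the rule in the GPiPSC groups only, 2.37% were higher and 10.4% lower, with a median log2 fold change of -0.39. At an unadjusted p under 0.05 there were 4 higher and 3 lower members, against 10.2% and 5.85% of all models. A fit of only these 4 libraries called 4 higher and 10 lower members, against 7.31% and 7.59% of all models, and with any 1 library left out of the whole fit 1 higher and 0 lower were called. The median log2 fold change of the members was -0.17, against 0.04 for all models, and 19 of the 40 had the higher mean in A83-01 D16. Both A83-01 D16 libraries lay above both control D16 libraries for 9 members (41.4% of all models tested) and below them for 14 (17.6% of all models tested). DESeq2 called 3 higher and 2 lower, against 5.33% and 2.81% of all models.

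The member that was higher was evm.model.HIC_ASM_7.414, which had 76.5 and 42.8 CPM in A83-01 D16 and 4.90 and 5.64 CPM in control D16. Its groups did not overlap, and the log2 fold change was 3.33 ± 0.42 (SE, adjusted p = 0.000144). In A83-01 D16 its mean was 127% of the fibroblast level and in control D16 it was 11.2%. It was called in all 11 alternatives, with a highest adjusted p of 0.00886. In the 4 fibroblast libraries it had 41.3 to 74.9 CPM, so its A83-01 D16 libraries lay within or just above the fibroblast range, while its control D16 libraries were near the 0.902 to 3.37 CPM of the 4 stage I libraries.

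The largest fall was in evm.model.HIC_ASM_19.77, with 96.7 and 44.2 CPM in A83-01 D16 and 427 and 456 CPM in control D16. Its libraries did not overlap between the groups, and the log2 fold change was -2.83 ± 0.71 (SE, adjusted p = 0.0201). The A83-01 D16 mean was 10.5% of the fibroblast level and the control D16 mean 65.7%. The other lower member was evm.model.HIC_ASM_11.499, with 55.4 and 28.4 CPM in A83-01 D16 and 124 and 124 CPM in control D16 (log2 fold change -1.74 ± 0.48, SE, adjusted p = 0.0366). Both calls were lost when any 1 of the 4 libraries was left out, with adjusted p up to 0.190 for evm.model.HIC_ASM_19.77 and up to 0.292 for evm.model.HIC_ASM_11.499 over all alternatives. The log2 fold changes without 1 library ran from -3.41 to -2.43 for evm.model.HIC_ASM_19.77 and from -2.21 to -1.41 for evm.model.HIC_ASM_11.499. In A83-01 D16 the members were lower in replicate 2 by 1.39-fold, as given above.

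**Figure D4:**
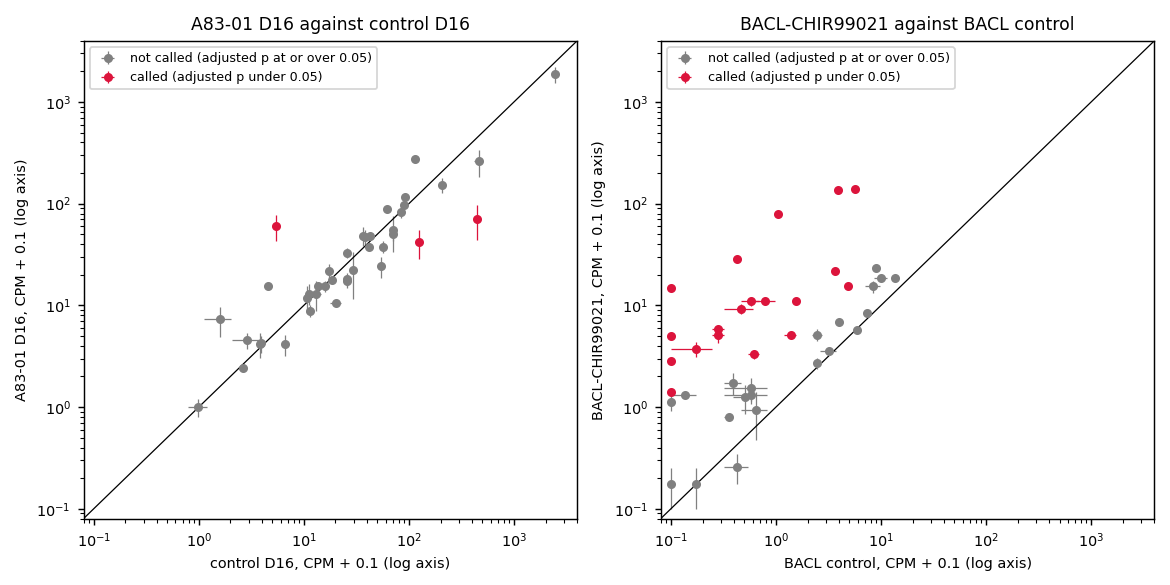
Mean level of each of the 40 members (CPM + 0.1, log axes) in A83-01 D16 against control D16 (left) and in BACL-CHIR99021 against BACL control (right), with the treated group on the vertical axis, bars for the range of both libraries, the diagonal for equal levels and red for called members. In A83-01 D16 against control D16, 1 called member lies above the diagonal and 2 below, and in BACL-CHIR99021 against BACL control all 19 called members lie above it.

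In the BACL groups 19 of the 40 members were higher with CHIR99021 and 21 were not called. In BACL-CHIR99021 the median was 9.99% of the fibroblast level (range 0.224% to 79.2%), 32 members were at or under 20% (background 7.98%), and 8 were above it. Without XR PF replicate 1 in the fibroblast level, 18 were at or under 20%. In BACL LB GPiPSCs and BACL control all 40 members were at or under 20% (background 12.4% and 12.7%), with medians of 1.20% and 1.30%. The rule had already chosen low values in the GPiPSC groups, so these counts in BACL groups are no independent test. Of the 674 models that met the rule in the GPiPSC groups only, 95.0% were at or under 20% in each of these groups. The share of counts taken by the members was 0.0641% and 0.0610% in BACL-CHIR99021, 0.0103% in each BACL LB GPiPSC library and 0.00895% and 0.00951% in BACL control.

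Against BACL control, 19 of the 40 members (47.5%) were higher in BACL-CHIR99021 and 0 were lower in the edgeR quasi-likelihood test. Over all models tested 11.7% were higher and 4.43% lower. At an unadjusted p under 0.05 the members numbered 22 higher and 0 lower (17.5% and 10.5% of all models), and DESeq2 also called 22 higher and 0 lower (12.8% and 6.34% of all models). The median in BACL control was 0.493 CPM and 6 members had 0 counts there. The choice of members thus left little room for a lower call, so the count of 0 says little. When the BACL-CHIR99021 and BACL control libraries were filtered alone, 35 members had enough counts for a test. The others passed the filter through other groups. In that narrower filter, members at or near 0 in BACL control could pass only through BACL-CHIR99021, so a higher call was favoured. The median log2 fold change was 2.26 over the 38 members above the floor in at least 1 group, with members at 0 set to their bound. It was 0.00 for all models. Without bounds it was 2.40 for all 40 members and 1.38 for the 674 models that met the rule in the GPiPSC groups only. Both BACL-CHIR99021 libraries lay above both BACL control libraries for 33 members (47.1% of all models tested) and below them for 0 (31.6% of all models tested). The fold change was above 0 for 37 members.

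Part of the other fibroblast models was called too. Of the 674 models that met the rule in the GPiPSC groups only, 42.4% were higher and 2.82% lower in BACL-CHIR99021, and 74.3% of them were at or under 20% of the fibroblast level, against 80% of the members. The count-weighted mean coding length was 1985 and 1974 bases in BACL-CHIR99021 and 1779 and 1795 bases in BACL control. Among all tested models at least as long as the median member, 14.0% were higher. The part of library make-up in the members' rise was not tested.

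The 19 members that rose had medians of 10.9 CPM in BACL-CHIR99021 and 0.475 CPM in BACL control. Their BACL-CHIR99021 means were a median of 11.2% of the fibroblast level (2.39% to 79.2%), and 6 were above 20%. The 21 members not called had medians of 1.63 CPM in BACL-CHIR99021 and 0.546 CPM in BACL control, and a median of 6.14% of the fibroblast level. No member reached its fibroblast level.

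Of the members that rose, evm.model.HIC_ASM_7.414 had the largest fitted change. It had 14.2 and 15.2 CPM in BACL-CHIR99021, from 175 and 201 counts, and 0 counts in both BACL control libraries. It was at least 67.2-fold higher, against a floor of 3 counts per library (adjusted p = 5.56e-07). It also had 0 counts in both BACL LB GPiPSC libraries. Model evm.model.HIC_ASM_2.143 had 5.12 and 4.61 CPM in BACL-CHIR99021, from 63 and 61 counts, and 0 counts in both BACL control libraries. It was at least 22.2-fold higher on the same floor (adjusted p = 0.00151). On log2(TPM + 1) with limma its adjusted p was 0.0891. In all, 6 members had 0 counts in both BACL control libraries.

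The 2 members nearest to their fibroblast level in any BACL group, evm.model.HIC_ASM_4.1495 and evm.model.HIC_ASM_3.2187, were both among the 19. Model evm.model.HIC_ASM_4.1495 had 12 and 9.81 CPM in BACL-CHIR99021 and 0.363 and 0.586 CPM in BACL control, against 18.4 and 9.16 CPM in LB PF and 28.9 and 4.57 CPM in XR PF. Its BACL-CHIR99021 mean was 79.2% of the fibroblast level, and it was within the range of the fibroblast libraries. Model evm.model.HIC_ASM_3.2187 had 141 and 137 CPM in BACL-CHIR99021 and 5.67 and 5.42 CPM in BACL control. That mean was 53.9% of its fibroblast level, and in XR GPiPSCs it was at 21.1 and 19.7 CPM.

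The members called in the A83-01 and CHIR99021 comparisons, which share no library, met in 2 models. Model evm.model.HIC_ASM_7.414 was higher with both agents. Model evm.model.HIC_ASM_19.77 was lower in A83-01 D16 and was among the 19 higher in BACL-CHIR99021, where it had 83.2 and 75.2 CPM, against 0.945 and 0.952 CPM in BACL control.

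**Figure D5:**
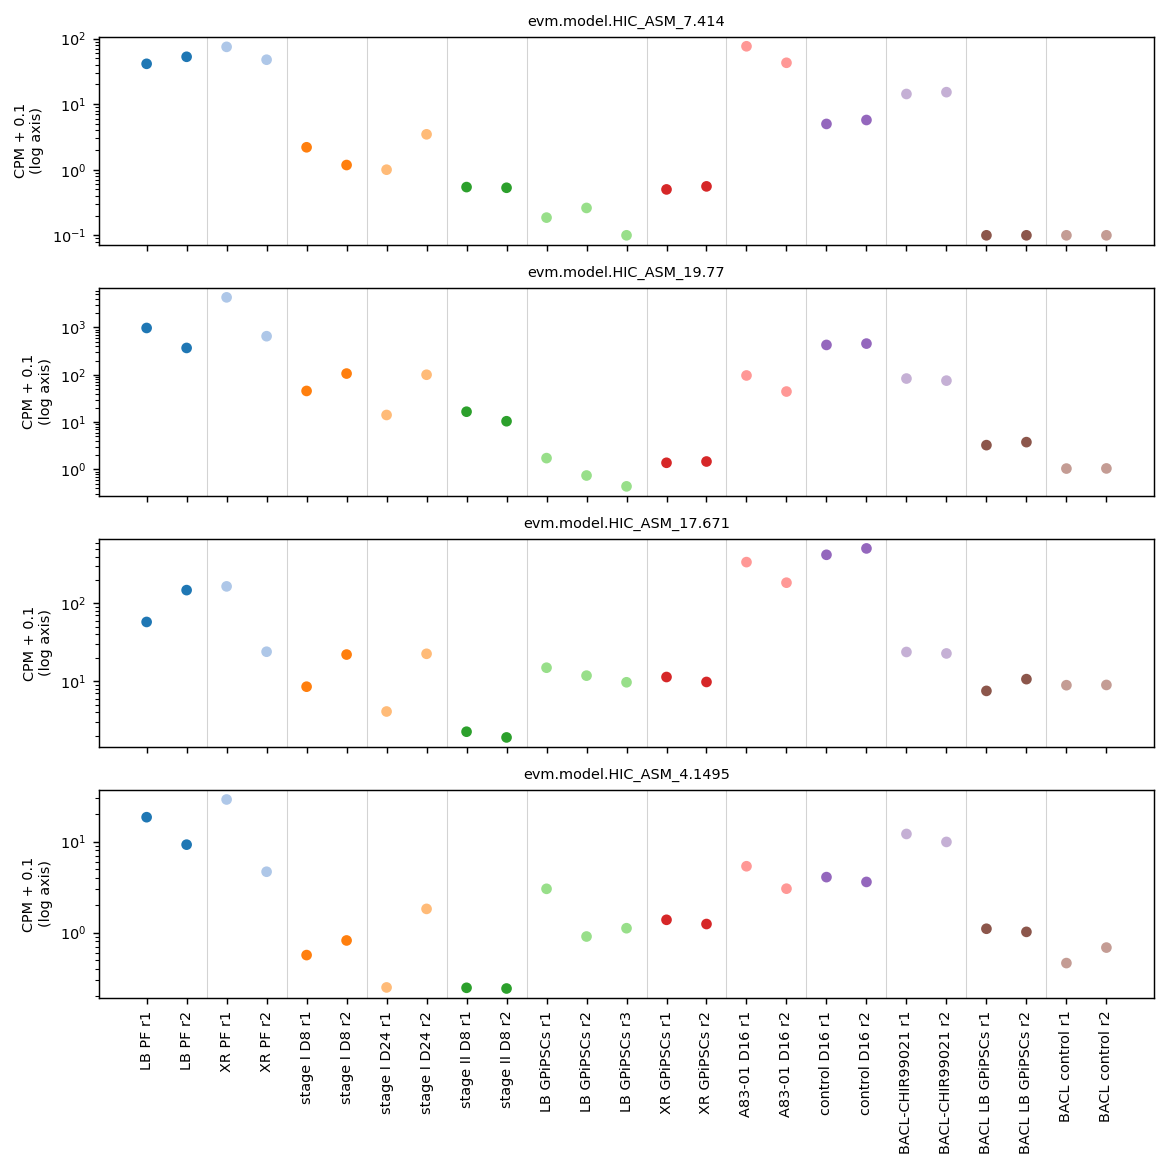
Level in each of the 25 libraries (CPM + 0.1, log axis) of evm.model.HIC_ASM_7.414, evm.model.HIC_ASM_19.77, evm.model.HIC_ASM_17.671 and evm.model.HIC_ASM_4.1495, with a point for each library and the groups along the horizontal axis. Model evm.model.HIC_ASM_7.414 stands at 76.5 and 42.8 CPM in A83-01 D16 and at 4.90 and 5.64 CPM in control D16, and evm.model.HIC_ASM_4.1495 at 12 and 9.81 CPM in BACL-CHIR99021 and at 0.363 and 0.586 CPM in BACL control.

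BACL LB GPiPSCs against BACL control showed little among the members, with medians of 0.668 CPM in BACL LB GPiPSCs and 0.493 CPM in BACL control. Of the 40 members, 9 were at or under the floor in both groups and 5 of them had 0 counts in both. When these libraries were filtered alone, 20 members had enough counts for a test, so the others passed the filter through other groups. In edgeR's test 0 members were higher and 2 lower in BACL LB GPiPSCs, against 1.55% and 2.90% of all models tested. At an unadjusted p under 0.05 there were 3 higher and 4 lower members (6.59% and 8.72% of all models), and DESeq2 called 1 higher and 3 lower (2.60% and 3.72% of all models). The median log2 fold change was -0.07 over the 31 members above the floor in at least 1 group, with members at 0 set to their bound. Model evm.model.HIC_ASM_2.1396 had 0.772 and 0.837 CPM in BACL LB GPiPSCs and 4.80 and 4.61 CPM in BACL control, with no overlap (log2 fold change -2.61 ± 0.40, SE, adjusted p = 0.000893). It was called in 10 of 11 alternatives, with an adjusted p of 0.0289 on log2(TPM + 0.1), and was not called on log2(TPM + 1), where its adjusted p was 0.487. The other lower member stayed under 2 CPM in both groups. With any 1 of the 4 libraries left out, 1 member was called.

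The members lay on 18 scaffolds. On HIC_ASM_3 there were 5 (12.5%, against 9.70% of the background models). HIC_ASM_2 and HIC_ASM_0 had 4 each (10%, against 4.55% and 5.68% of the background models). Of the 40 members, 8 were in pairs with consecutive model numbers. The share of background models in such pairs was not computed, so whether members lie together more often cannot be told. Of the members 20% had a coding length of at least 3000 bases, against 13.4% of the background models and 11.9% of the 674 models. For each of the 4 pairs the ratio of counts is given over the libraries with at least 20 counts in both models. The ratio of evm.model.HIC_ASM_2.143 (1076 bases) to evm.model.HIC_ASM_2.142 (223 bases) was 4.28 to 9.87 with a median of 4.78 over 10 libraries. The ratio of evm.model.HIC_ASM_5.1191 (1131 bases) to evm.model.HIC_ASM_5.1190 (1974 bases) was 0.725 to 0.960 with a median of 0.861 over 9 libraries. In the pair on HIC_ASM_13 the longer model had 1.43 to 4.30 times the counts of the shorter (median 2.53, 10 libraries), and in the pair on HIC_ASM_0 it had 1.46 to 4.59 times (median 2.69, 23 libraries). Per base of deposited effective length, which is not the coding length given here, the medians of these ratios were 0.252, 1.64, 0.212 and 0.213 in the order given. Reads shared between near-identical models would not be told apart in the deposited values, and whether the models of a pair share sequence was not examined. Only 1 of the 40 members had an estimated count that differed from a whole number by more than 0.01 in any library. Sharing of reads was not tested.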

How the data were processed

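Libraries were made from 2 μg of column-purified RNA per sample with the NEBNext Ultra kit, according to the labels' protocols. Kallisto is named in the submitters' processing notes, with no version, index or genome build given in the sources used here. The authors deposited for each library a table of 22924 models that holds, per the file headers, lengths, effective lengths, estimated counts and TPM. The deposited TPM values, scaled by the authors' tool to effective length and library total, were used only for alternatives. CPM is the estimated count over its column sum. Lengths are called coding lengths, since 91.6% divide by 3.

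Sample titles gave the groups and replicate numbers. Rounded counts of all 25 libraries entered 1 fit of 12 groups (13 residual degrees of freedom) in edgeR 4.0.16 (R 4.3.3), with filterByExpr, TMM, robust quasi-likelihood F tests and Benjamini-Hochberg adjustment over 17225 models, called at an adjusted p under 0.05. The fit was run on simulated data with 1 overall mean per model and changes only in models above 2 CPM. That run did not cover groups near 0 counts, such as the members in the BACL groups. Members, lists and tests were chosen with earlier results of these data known. Without gene names, the models named were the 2 with the highest fibroblast level, up to 2 called per direction with the largest fold change (no overlap between libraries and a higher mean of 2 CPM or more), the 2 highest against fibroblasts in control D16 and in any BACL group, and members with consecutive numbers. Of called members with a group at 0 counts, a bound against 3 counts per library is given. Reads from both strands of overlapping models cannot be told apart, as no strand setting is given. Alternatives were DESeq2 1.42.0, RLE size factors, no filter on low counts, limma 3.58.1 on log2(TPM + 1) and log2(TPM + 0.1), only the libraries compared, a replicate block, other thresholds and scalings of the rule, and each library left out, where a lone library takes its spread from the other groups. Leaving out fibroblast libraries in the counts of low members in D16 and BACL groups was chosen after seeing the data.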

Additional observations from a re-analysis of the deposited data

How the results depend on the processing

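None of the calls and counts below reversed its direction, while the median ratios of stage I D24 to stage I D8 and of both GPiPSC groups to stage II D8 turned with TMM scaling, as given above. The count of members under the rule was 9 at 10% of the fibroblast level, 139 at 1/3 of it, and 3 when the lowest fibroblast and highest later library took the place of means, and it ran from 5 to 82 with 1 library left out. Where 3 members were called in A83-01 D16 against control D16, the count was 1 with any 1 library left out, 1 on log2(TPM + 0.1), 5 in DESeq2 and 14 (4 higher, 10 lower) with only the libraries compared, where 7.31% of all models were called higher and 7.59% lower. Where 19 were called in BACL-CHIR99021 against BACL control, the count was 16 to 18 with 1 library left out and 31 of 35 tested with only the libraries compared, where 36.8% of all models were called higher and 34.9% lower. For BACL LB GPiPSCs against BACL control, with 2 called, the counts were 4 in DESeq2, 0 on log2(TPM + 1), 1 on log2(TPM + 0.1), 10 of 20 tested with only the libraries compared (59.5% of all models), and 1 with any 1 library left out. Without XR PF replicate 1, whose absence changes the fibroblast level itself, the members at or under 20% of it numbered 5 instead of 8 in A83-01 D16 and 18 instead of 32 in BACL-CHIR99021. Over all libraries left out in turn they ran from 5 to 11 in A83-01 D16, 6 to 11 in control D16, 18 to 33 in BACL-CHIR99021, 33 to 40 in BACL LB GPiPSCs and 36 to 40 in BACL control. The causes were not tested.

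A replicate block called 17 members (4 higher, 13 lower) in the A83-01 comparison, 31 of 35 tested in the CHIR99021 comparison and 10 of 20 tested in the BACL LB GPiPSC comparison, against 19.6%, 70.7% and 60.0% of all models. Deviations of same-numbered libraries correlated at -0.0149, -0.00384 and -0.00105 over models in these comparisons. These values show no strong shared shift over models. With so few libraries a group they cannot show whether same-numbered libraries share a culture or a batch.

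Depth limits the BACL results, as 12 to 16 members had 3 counts or fewer in each library of BACL LB GPiPSCs and BACL control. Of the 35 members tested with only the CHIR99021 libraries and their control, those near 0 in BACL control passed through BACL-CHIR99021 alone. The calls among these 35 are therefore no separate support. With 2 libraries a group, no spread within 1 group is well known, and differences between models of different coding length within a library are not levels per transcript.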

Other observations

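Of the coding lengths of the 40 members 30 were multiples of 3, against 95.6% of the models at 10 CPM or more in both fibroblast groups. Only 1 member had an estimated count that differed from a whole number by more than 0.01 in any library, against 5.52% of those models.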
